A study of Mus musculus with 40 samples.

Results

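The genes examined here encode the chains of collagen, the family of helical proteins that builds fibrils, sheets and anchors of the extracellular matrix. They were chosen by name, as every gene of the RNA-seq count table whose symbol consists of Col, a number, the letter a and a number, without Col17a1, the collagen of hemidesmosomes. This rule took 43 of the 53465 genes in the table. RNA came from mouse bladder urothelial cells grown as organoids, and 8 libraries of polyA RNA fell into 4 groups of 2. The groups were dKO MI503, dKO DMSO, WT MI503 and WT DMSO. Cells labelled dKO are knockouts of both Kmt2c and Kmt2d, which encode histone H3K4 methyltransferases that act at enhancers, and WT cells are wild type. MI503 cells received the small molecule MI-503, which blocks the binding of menin to the methyltransferase KMT2A, at 1 µM for 4 days, and DMSO cells received the solvent. All groups shared a medium with EGF, conditioned media containing Noggin and R-spondin, the ROCK inhibitor Y-27632 and A83-01, an inhibitor of TGF-beta receptors. The sources used here do not give how the alleles were deleted, in which cells, or whether replicates were separate cultures, so p-values measure the spread between these libraries only. The other 32 of 40 samples of the series, from other assays, were not analysed here.

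Collagen chains assemble in threes inside the endoplasmic reticulum, where prolines and lysines are hydroxylated, and the trimers are then secreted. Fibrillar collagens such as types I and V form the fibrils of connective tissue, made mostly by fibroblasts, while type IV forms the sheet of the basement membrane on which epithelia rest. Type XVIII sits in basement membranes as a proteoglycan, type VII anchors them to the tissue below, and FACIT collagens attach to fibrils. In the bladder the urothelium rests on such a basement membrane, and TGF-beta is a known inducer of many collagen genes.

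Library totals ran from 58113705 to 68571176 counts, and levels are given as CPM, the counts of a gene scaled to a common library total with TMM factors, which ran from 0.892 to 1.06. A CPM is a share of reads and is not corrected for gene length, so levels are compared between groups for 1 gene and not between genes. Kmt2c averaged 28.2 CPM in dKO MI503, 53.8 in dKO DMSO, 60.9 in WT MI503 and 110.5 in WT DMSO, and Kmt2d averaged 95.3, 122.2, 70.7 and 90.9 CPM in the same order of groups. Neither gene was absent from the libraries labelled dKO, and counts over a whole gene cannot show the loss of single exons. Of 19 urothelial markers 18 passed the filter on low counts, and Krt5, a keratin of basal cells, averaged between 3973 and 10387 CPM in the groups, while Upk2, which encodes a uroplakin of the umbrella cells, reached at most 0.149 CPM. The WT DMSO libraries stood apart in RNA of 12 chaperones of the endoplasmic reticulum, a list chosen with its values known. These summed to 39409 and 42607 CPM there, against 3607 to 4735 CPM in the other 6 libraries. The comparisons of dKO MI503 with dKO DMSO and with WT MI503 hold no WT DMSO library, and all others do. The filter, scaling and fit behind every comparison used all libraries, WT DMSO included.

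The stretch of 250 bases before the annotated start of 3 members is shown because these genes changed in different ways: Col8a1 had far less RNA in the cells labelled dKO, Col18a1 had more, and Col7a1 gained RNA with MI-503 in WT. Sequences are from RefSeq, build GRCm38.p6, read 5′ to 3′ on the strand of the gene. Capitals mark a GC box (GGGCGG on either strand, so also CCGCCC) or a CCAAT box (CCAAT on either strand, so also ATTGG).
Col8a1, chr16:57754738-57754987, minus strand: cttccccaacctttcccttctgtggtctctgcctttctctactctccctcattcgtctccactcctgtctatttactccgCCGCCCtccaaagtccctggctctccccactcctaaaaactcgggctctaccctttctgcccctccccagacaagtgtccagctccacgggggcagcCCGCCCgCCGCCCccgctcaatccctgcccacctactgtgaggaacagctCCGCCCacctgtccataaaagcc
Col18a1, outer of its 2 listed starts, chr10:77166531-77166780, minus strand: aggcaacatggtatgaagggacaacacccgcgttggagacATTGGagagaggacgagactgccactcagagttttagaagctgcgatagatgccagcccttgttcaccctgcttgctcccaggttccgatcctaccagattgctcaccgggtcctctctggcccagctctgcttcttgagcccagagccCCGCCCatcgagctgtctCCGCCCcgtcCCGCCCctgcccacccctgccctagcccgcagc
Col7a1, chr9:108953336-108953585, plus strand: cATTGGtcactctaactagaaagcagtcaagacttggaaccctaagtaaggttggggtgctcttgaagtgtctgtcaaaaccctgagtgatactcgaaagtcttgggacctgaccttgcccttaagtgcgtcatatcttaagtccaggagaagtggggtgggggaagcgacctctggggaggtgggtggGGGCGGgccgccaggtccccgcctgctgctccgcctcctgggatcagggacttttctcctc
GC boxes numbered 4 before Col8a1, 3 before Col18a1 and 1 before Col7a1, and a CCAAT box stood before Col18a1 and Col7a1 and not before Col8a1. The TATA box motif TATAAA was searched on both strands as well and occurred in none of these stretches. The 300 bases around the inner listed start of Col18a1 held none of these motifs. Counts over a whole gene cannot show which start was used. Over all 32851 RefSeq windows, each of 300 bases around a gene start, 35.7% held a GC box, 37.4% a CCAAT box and 13.6% TATAAA. Of the 43 members 34 had at least 1 such window, 37 windows in all, of which 23 held a GC box, 12 a CCAAT box and 4 TATAAA. A match describes the letters and does not show that a factor binds there.

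Detection of the collagen chains was uneven. The filter on low counts (about 10 counts in at least 2 libraries, the size of a group, and 15 in all) passed 21 members, and the other 22 were not tested. Of those 22, 7 had no count in any library: Col1a2, the partner chain of type I collagen, Col6a4, Col6a5, Col6a6, Col9a1, Col19a1 and Col24a1. A count of 0 allows up to 3 counts, or 0.0438 to 0.0516 CPM before scaling, and such floors cover counting error only. The remaining 15 had between 1 and 15 counts in their highest library. The largest total over the 8 libraries among them was 50 counts, for Col15a1, a relative of Col18a1. All 6 type VI chains, which form beaded filaments around cells, were among the untested members, as was Col3a1, a fibrillar chain of soft tissues. Members with at least 1 CPM in both libraries numbered 10 in dKO MI503, 9 in dKO DMSO, 9 in WT MI503 and 11 in WT DMSO. A member that passed the filter only through 1 high group had to differ between groups, so the counts of changed members below describe these 21 genes and no more. Col16a1 passed only through WT MI503 and Col5a1 only through dKO MI503. Col1a1 and Col5a2 passed only through dKO libraries, and Col4a6 only through WT libraries. Only the dKO groups had at least 10 counts of Col27a1 in both libraries, and only the MI503 groups had that for Col23a1. Tests of these genes against the other groups draw on that choice.

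Across the tested members, the cells labelled dKO had less RNA of Col8a1 and of 5 of the 6 type IV chains in DMSO and more of Col18a1, Col12a1 and 3 fibrillar chains, relative to WT. The fibrillar chains Col1a1, Col5a2 and Col27a1 passed the filter through dKO groups and Col4a6 through WT groups. Their differences were partly set by the filter, and the Col1a1 call ended in DESeq2 (adjusted p = 0.0714). Addition of MI-503 was followed by more RNA of Col4a1, Col4a2, Col8a1, Col18a1 and Col12a1 in each genotype and by less of Col26a1. A member is said to have risen or fallen where the edgeR quasi-likelihood test passed an adjusted p of 0.05 over all 16921 genes tested. Between dKO DMSO and WT DMSO 6 members rose, 8 fell and 7 did not pass, where 29.6% of all tested genes rose, 35.8% fell and 65.4% were called in either direction. With MI-503 in WT 11 rose, 5 fell and 5 did not pass, against 35.2% risen and 33.7% fallen of all genes (69.0% called). With MI-503 in dKO 10 rose, 1 fell and 10 did not pass, against 29.1% and 26.5% of all genes (55.6% called). Between dKO MI503 and WT MI503 6 rose, 10 fell and 5 did not pass, against 26.6% and 28.5% (55.1% called). Calls in either direction were thus about as frequent among the members as among all genes between dKO DMSO and WT DMSO, and with MI-503 more of the called members rose than fell in either genotype.

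The median log2 fold change of the members, beside that of all tested genes, was -0.16 and -0.05 between dKO DMSO and WT DMSO, and -0.53 and 0.01 between dKO MI503 and WT MI503. For MI-503 it was 1.09 and 0.03 in WT over the 20 members with a fold, and 0.90 and 0.03 in dKO. Comparisons that share a group, such as the first dKO comparison and MI-503 in WT, are not independent of each other. Without the TMM factors the median of all genes moved by 0.23 on the log2 scale between dKO DMSO and WT DMSO, by 0.17 for MI-503 in WT and by -0.16 for the difference of the MI-503 effects. The share of higher genes among all calls was then 61.7% in place of 45.3% in the first and 37.2% in place of 52.9% in the last. In bulk RNA, fewer cells of a type and less RNA per cell cannot be told apart.

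Markers of other cell types differed between the same groups. The 15 fibroblast markers summed to 69.8 and 63.0 CPM in dKO MI503, 45.2 and 51.3 in dKO DMSO, 91.6 and 85.9 in WT MI503, and 22.1 and 20.5 in WT DMSO. Of these 15 genes 7 were tested, and 6 had no count in any library, among them Dcn and Lum, which encode matrix proteoglycans of fibroblasts, and Thy1. The 9 smooth muscle markers summed to 142.6 and 118.6 CPM in dKO MI503, 75.3 and 95.3 in dKO DMSO, 115.7 and 104.4 in WT MI503, and 55.7 and 49.6 in WT DMSO. Both sums were lowest in WT DMSO and higher in MI503 than in DMSO libraries of each genotype. Fbln1 averaged 12.1 CPM in dKO MI503, 4.35 in dKO DMSO, 46.9 in WT MI503 and 3.12 in WT DMSO. Vim averaged 14.4, 3.64, 26.1 and 0.492 CPM in that order, and Twist2 27.1, 32.9, 13.7 and 16.0. Between dKO DMSO and WT DMSO 6 fibroblast markers rose and 1 fell (Pdgfrb, -3.93), where 65.4% of all tested genes were called. The rises ran from 0.48 (Fbln1) to 5.06 (Twist1) on the log2 scale, with 2.88 for Vim and 1.77 for Pdgfra. Twist1 passed the filter only through dKO groups and Pdgfrb only through WT DMSO. With MI-503 in WT 3 fibroblast markers rose and 2 fell (Twist2 and Pdgfrb), where 69.0% of all tested genes were called. With MI-503 in dKO 4 rose and 1 fell (Twist2), where 55.6% were called. Most of the smooth muscle sum was Smtn, which averaged 122.4 CPM in dKO MI503, 83.7 in dKO DMSO, 67.6 in WT MI503 and 48.0 in WT DMSO. Of the 6 smooth muscle markers tested, 1 (Smtn) rose and 3 fell between dKO DMSO and WT DMSO, with falls of Acta2 (-1.70), Lmod1 (-2.36) and Synpo2 (-2.13). With MI-503, 3 of these markers rose and 0 fell in each genotype, where 69.0% of all tested genes were called in WT and 55.6% in dKO. Acta2 rose most, by 3.67 in WT, to a mean of 40.8 CPM in WT MI503, and by 2.86 in dKO. Smtn rose by 0.50 in WT and 0.55 in dKO. The 8 endothelial markers summed to at most 0.468 CPM. Of the 9 immune markers, whose sum ran from 13.1 to 166 CPM, Cd68 carried nearly all, while Adgre1 and Lyz2 had no count. The part of such cells in the collagen values was not tested.

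**Figure D1:**
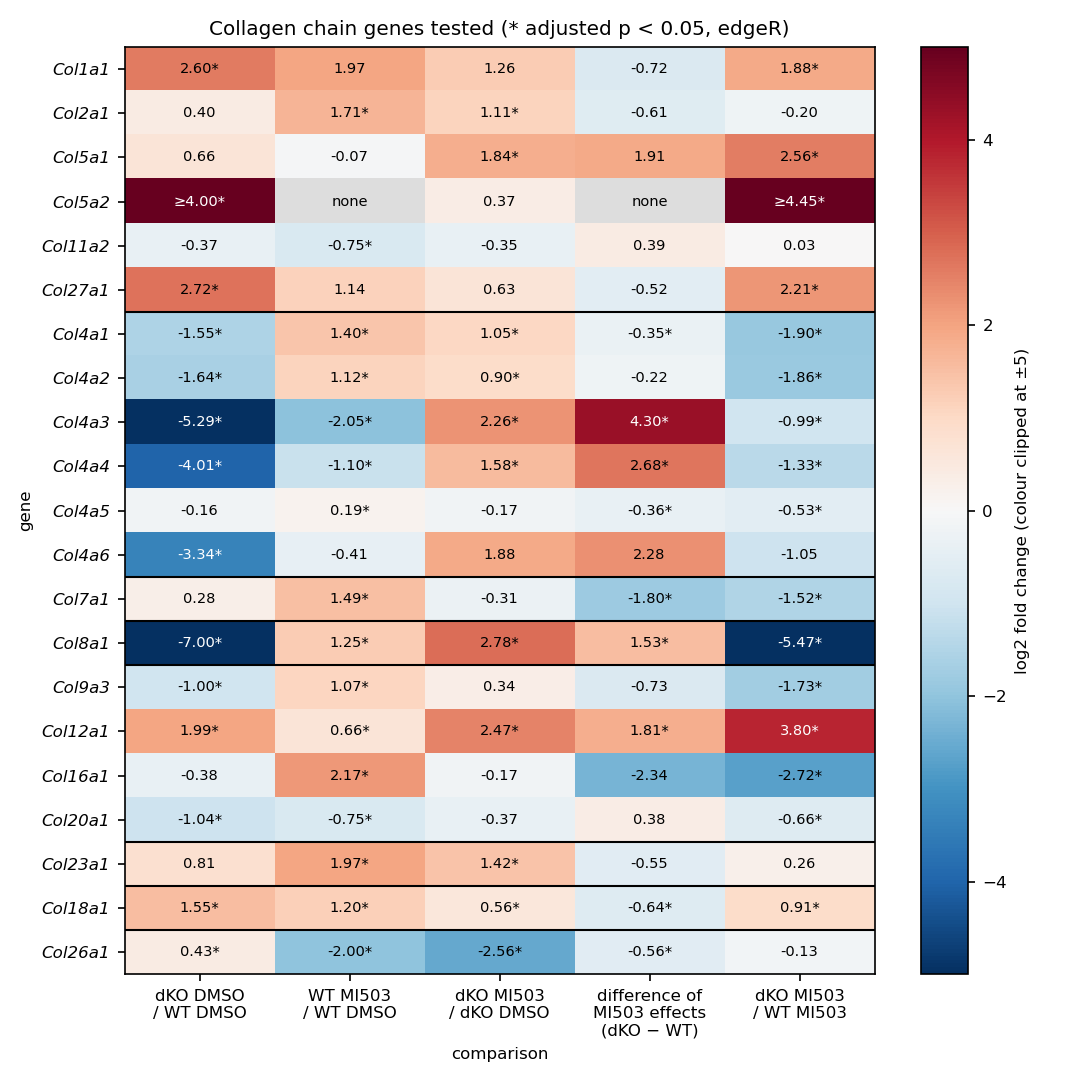
Log2 fold changes of the 21 tested collagen chain genes (rows, grouped by structural class with black lines) in 5 comparisons (columns). An asterisk marks an adjusted p below 0.05 (edgeR), ≥ marks a lower bound of Col5a2 against groups with 0 counts, and none marks a fold that cannot be given. The dKO columns are blue for Col8a1 and most type IV chains, and both MI503 columns are red for Col4a1, Col4a2, Col8a1 and Col18a1.

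Type IV collagen comes from 6 genes that lie head to head as neighbours, Col4a1 with Col4a2 on chromosome 8, Col4a3 with Col4a4 on chromosome 1 and Col4a5 with Col4a6 on chromosome X. In RefSeq GRCm38.p6 the first pair overlaps by 85 bases and the second by 114, while 1274 bases part the third. All 6 were tested. The sources used here do not give the strand setting of the counting, so reads from the overlaps could not be assigned with certainty.

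Col4a1 (ENSMUSG00000031502, 11198423 to 11312889) and Col4a2 (ENSMUSG00000031503, 11312805 to 11449287) encode the chains of the type IV trimer found in nearly all basement membranes. Col4a1 had 25.0 and 24.9 CPM in dKO MI503, 11.1 and 12.9 in dKO DMSO, 96.9 and 89.4 in WT MI503, and 37.9 and 32.6 in WT DMSO. Col4a2 had 39.4 and 33.1 CPM in dKO MI503, 17.6 and 21.3 in dKO DMSO, 137.8 and 124.7 in WT MI503, and 62.2 and 58.5 in WT DMSO. For both genes dKO DMSO was lowest and WT MI503 highest, and no groups overlapped. On the log2 scale, Col4a1 fell by 1.55 (SE 0.0869, adjusted p = 2.27e-09) and Col4a2 fell by 1.64 (SE 0.0962, adjusted p = 3.71e-09) between dKO DMSO and WT DMSO. The changes between dKO MI503 and WT MI503 were -1.90 and -1.86. With MI-503, Col4a1 rose by 1.05 in dKO and 1.40 in WT, and Col4a2 by 0.90 and 1.12, all past the threshold. The difference of these effects passed for Col4a1 (-0.35, adjusted p = 0.0260) and not for Col4a2 (-0.22, 95% interval -0.51 to 0.06, adjusted p = 0.194). The Col4a1 call ended without dKO DMSO replicate 2 (-0.24), WT MI503 replicate 1 (-0.29) or WT DMSO replicate 2 (-0.24), and the Col4a2 difference passed without dKO MI503 replicate 1 (-0.36) or dKO DMSO replicate 1 (-0.35), without TMM factors (-0.38) and with no filter (-0.32).

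Col4a3 (ENSMUSG00000079465, 82586921 to 82722059) and Col4a4 (ENSMUSG00000067158, 82448419 to 82587034) encode chains that join the product of Col4a5 in the basement membrane of the kidney glomerulus, where their loss causes Alport syndrome. Col4a3 had 0.341 and 0.227 CPM in dKO MI503, 0.0758 and 0.0420 in dKO DMSO, 0.512 and 0.635 in WT MI503, and 2.38 and 2.35 in WT DMSO. Col4a4 had 0.386 and 0.405 CPM in dKO MI503, 0.121 and 0.140 in dKO DMSO, 1.27 and 0.702 in WT MI503, and 2.20 and 2.08 in WT DMSO. Both genes were low everywhere, with at most 146 counts in a library, and the groups stood in the order dKO DMSO, dKO MI503, WT MI503, WT DMSO without overlap. On the log2 scale, Col4a3 fell by 5.29 (SE 0.351, adjusted p = 1.24e-08) and Col4a4 fell by 4.01 (SE 0.341, adjusted p = 1.61e-07) between dKO DMSO and WT DMSO.

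The change of this gene pair with MI-503 ran in opposite directions in the genotypes. In dKO, Col4a3 rose by 2.26 (adjusted p = 0.00141) and Col4a4 by 1.58 (adjusted p = 0.00737). In WT, Col4a3 fell by 2.05 (adjusted p = 3.4e-06) and Col4a4 by 1.10 (adjusted p = 0.0012). The differences of the effects were 4.30 (SE 0.537, adjusted p = 1.87e-05) and 2.68 (SE 0.50, adjusted p = 0.000572). Both were lower in dKO MI503 than in WT MI503, with log2 changes of -0.99 (adjusted p = 0.0171) and -1.33 (adjusted p = 0.00224). The Col4a3 call there ended without dKO MI503 replicate 2 (-0.74) or WT MI503 replicate 2 (-0.83), and that of Col4a4 without WT MI503 replicate 1 (-0.83).

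Col4a5 (ENSMUSG00000031274, 141475370 to 141689236) and Col4a6 (ENSMUSG00000031273, 141165403 to 141474095) encode chains of a trimer found in certain epithelial and smooth muscle basement membranes. Col4a5 had 19.7 and 20.1 CPM in dKO MI503, 23.5 and 21.3 in dKO DMSO, 28.4 and 28.9 in WT MI503, and 26.2 and 23.9 in WT DMSO. Its level moved little, though no groups overlapped. It fell by 0.53 between dKO MI503 and WT MI503 (adjusted p = 3.02e-05). The change between dKO DMSO and WT DMSO was -0.16 (adjusted p = 0.0633), and it was 0.07 without TMM factors and -0.23, past the threshold, without dKO DMSO replicate 1 or WT DMSO replicate 2. With MI-503 it rose by 0.19 in WT (adjusted p = 0.0274), with a change of -0.17 in dKO (adjusted p = 0.0615), and the difference of these effects was -0.36 (adjusted p = 0.00957). The WT call ended without WT MI503 replicate 1 (0.21), WT MI503 replicate 2 (0.17) or WT DMSO replicate 2 (0.12), and the call on the difference ended without WT DMSO replicate 2 (-0.29). The change in dKO passed without dKO DMSO replicate 2 (-0.24), with no filter (-0.20) and in a fit of the groups compared (-0.20).

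Col4a6 had 6 and 5 counts in dKO MI503, 0 and 3 in dKO DMSO, 14 and 9 in WT MI503, and 16 and 13 in WT DMSO. Both dKO DMSO libraries were lowest, and the counts of WT MI503 and WT DMSO overlapped. Its fall between dKO DMSO and WT DMSO passed (adjusted p = 0.0015), and the pooled counts of 3 and 29 gave a level 10.9-fold lower in dKO DMSO, with a 95% counting interval of 3.37 to 55.8. The fitted log2 change of -3.34 was -2.44 without dKO DMSO replicate 1 and -6.93 without replicate 2, where the remaining library had 0 counts and the fitted value depends on the prior count. No other comparison of this gene passed, though the rise with MI-503 in dKO and the difference of effects did so without dKO DMSO replicate 2, where the group held 1 library with 0 counts.

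**Figure D2:**
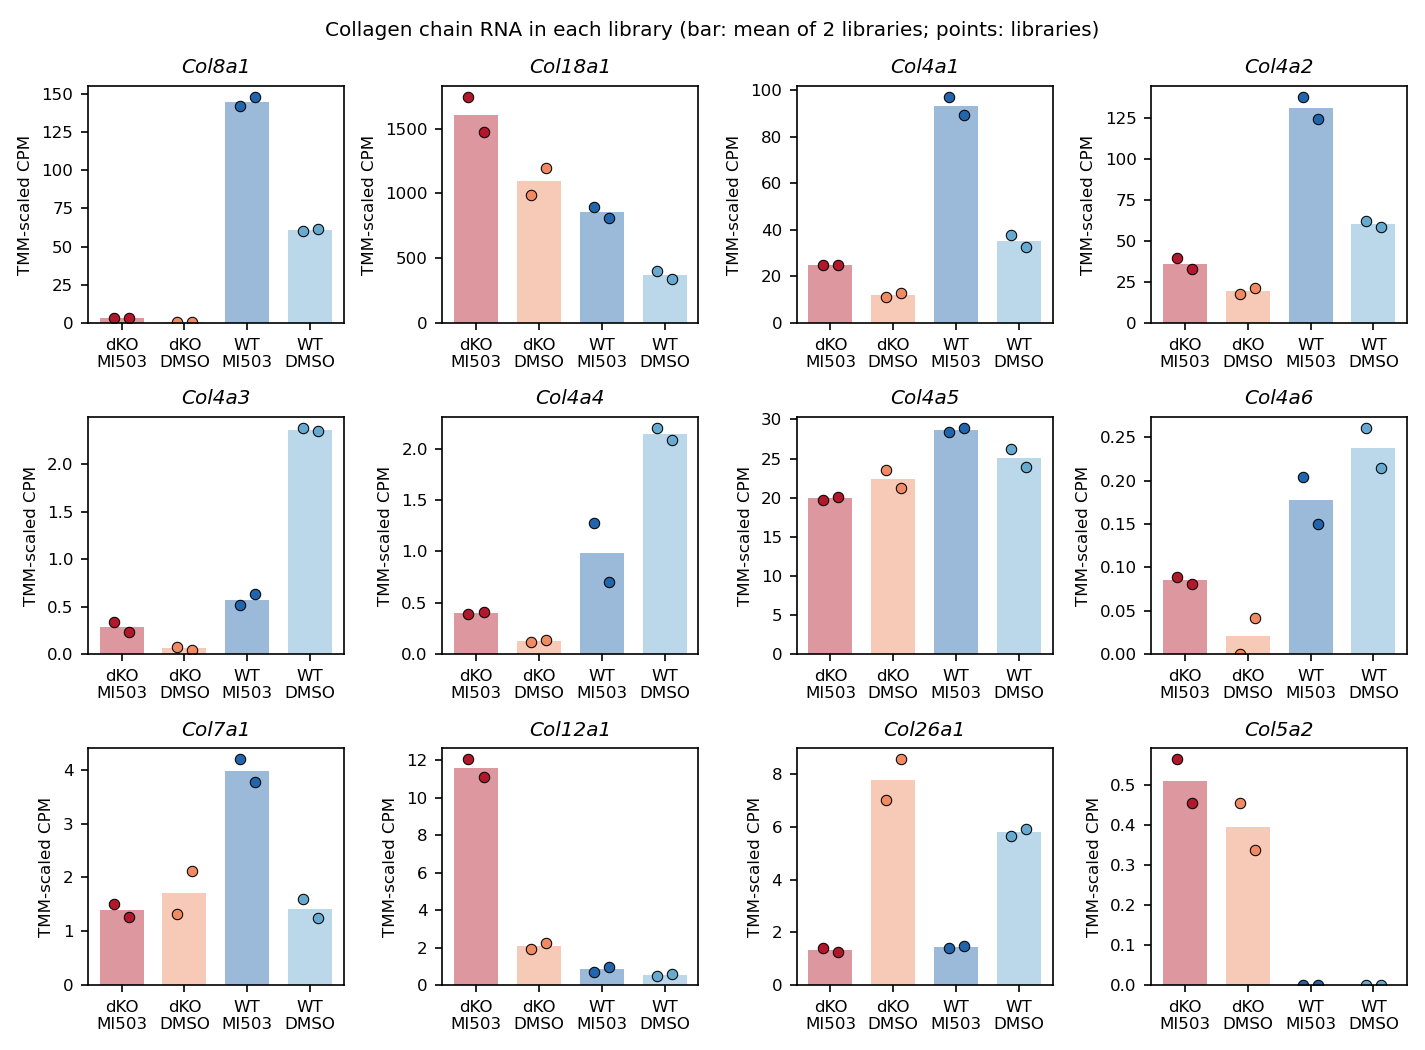
TMM-scaled CPM of 12 collagen chain genes in the 4 groups, each panel with its own linear axis from 0. Bars are means of 2 libraries and points are libraries. Col8a1 and the type IV chains stand lower in both dKO groups than in WT at the same treatment, with the smallest fold for Col4a5, and Col5a2 has no count in WT.

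Col18a1 (ENSMUSG00000001435, chromosome 10, 77052178 to 77166530) encodes the core protein of a basement membrane proteoglycan whose end fragment is known as endostatin. It had 1742 and 1472 CPM in dKO MI503, 986 and 1199 in dKO DMSO, 896 and 813 in WT MI503, and 403 and 342 in WT DMSO. The groups did not overlap, and both WT DMSO libraries were lowest. It rose by 1.55 on the log2 scale between dKO DMSO and WT DMSO (SE 0.102, adjusted p = 1.18e-08), and between dKO MI503 and WT MI503 by 0.91 (SE 0.10, adjusted p = 3.66e-06). With MI-503 it rose by 0.56 in dKO (adjusted p = 0.000301) and 1.20 in WT (adjusted p = 1.16e-07). The rise was smaller in dKO, with a difference of -0.64 (SE 0.141, adjusted p = 0.00202).

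Reads of Col18a1 made up most collagen reads in every library. They were 93.4% to 94.1% of the summed CPM of the 43 members in the 4 dKO libraries and 63.4% to 67.9% in the 4 WT libraries. The summed CPM of the members averaged 1715 ± 197 in dKO MI503, 1165 ± 155 in dKO DMSO, 1270 ± 69.8 in WT MI503 and 575 ± 49.9 in WT DMSO (SD, n = 2 each). Leaving Col18a1 out, the sums averaged 107.8, 72.6, 415 and 202 CPM in the same order of groups. The sum was therefore higher in dKO DMSO than in WT DMSO with Col18a1 and lower without it. Type IV chains together summed to 81.8 ± 4.34 CPM in dKO MI503, 54.1 ± 2.34 in dKO DMSO, 254.8 ± 14.6 in WT MI503 and 125.4 ± 8.09 in WT DMSO.

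**Figure D3:**
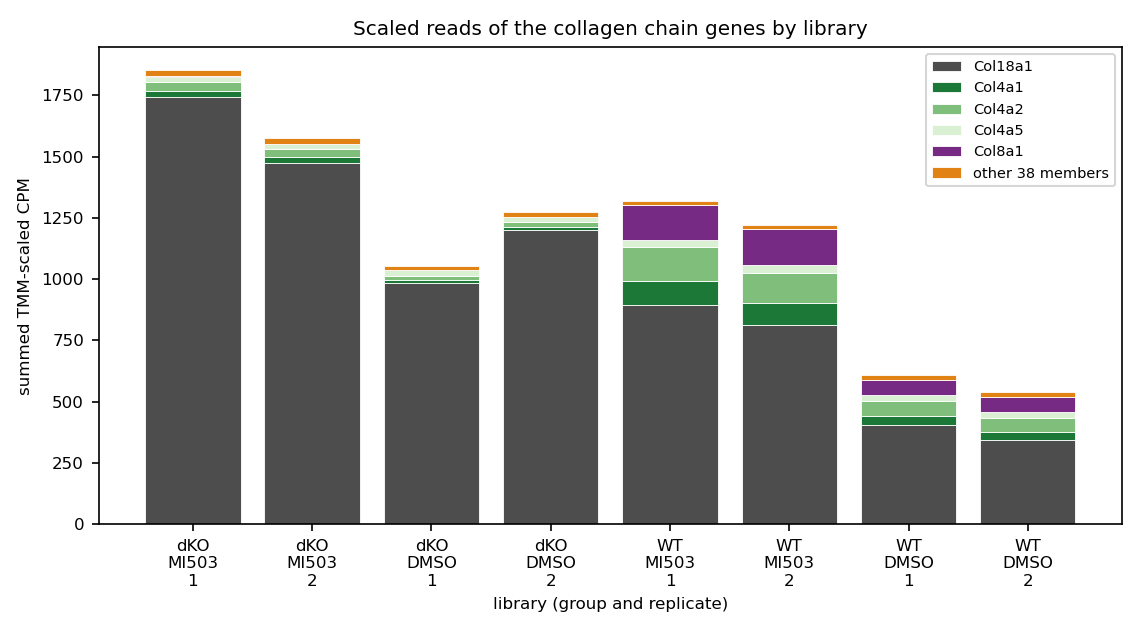
Summed TMM-scaled CPM of the 43 collagen chain genes in each of the 8 libraries, stacked by gene. Col18a1 (dark grey) fills 93.4% to 94.1% of each dKO bar and 63.4% to 67.9% of each WT bar, and the Col8a1 part is visible in WT only.

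Col8a1 (ENSMUSG00000068196, chromosome 16, 57624256 to 57754737) encodes a short chain that builds hexagonal networks, known from Descemet's membrane of the eye and from vessel walls. It had 3.40 and 3.11 CPM in dKO MI503, 0.591 and 0.364 in dKO DMSO, 142 and 148 in WT MI503, and 60.4 and 61.4 in WT DMSO. All dKO libraries lay far below all WT libraries. As counts, these were 229 and 192 in dKO MI503, 39 and 26 in dKO DMSO, 9714 and 8842 in WT MI503, and 3712 and 3713 in WT DMSO.

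Between dKO DMSO and WT DMSO, Col8a1 fell by 7.0 on the log2 scale (SE 0.114, adjusted p = 1.4e-14), the largest fitted fall of any tested member there. Between dKO MI503 and WT MI503 it fell by 5.47 (SE 0.0868, adjusted p = 1.73e-14). With MI-503 it rose by 2.78 in dKO (SE 0.157, adjusted p = 5.11e-09) and by 1.25 in WT (SE 0.0657, adjusted p = 7.63e-10). The rise was larger in dKO by 1.53 (SE 0.18, adjusted p = 1.11e-05), yet the dKO MI503 libraries stayed below those of WT DMSO. Its relatives Col8a2, with at most 7 counts in a library, and Col10a1, with 1 count in all, were not tested.

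Col7a1 (ENSMUSG00000025650, chromosome 9, 108953586 to 108984875) encodes the collagen of the anchoring fibrils beneath stratified epithelia. It had 1.51 and 1.26 CPM in dKO MI503, 1.32 and 2.12 in dKO DMSO, 4.2 and 3.78 in WT MI503, and 1.59 and 1.24 in WT DMSO. Both WT MI503 libraries were high, and the other 3 groups overlapped. With MI-503 it rose by 1.49 in WT (SE 0.209, adjusted p = 2e-05), with a change of -0.31 in dKO (SE 0.225, adjusted p = 0.267) and a difference of the effects of -1.80 (SE 0.308, adjusted p = 0.000279). Relative to WT MI503, it fell by 1.52 in dKO MI503 (adjusted p = 2.92e-05). The change between dKO DMSO and WT DMSO was 0.28 (adjusted p = 0.292), and the dKO DMSO libraries decided it: without replicate 1 it was 0.58 and passed, and without replicate 2 it was -0.10. Likewise the change with MI-503 in dKO was -0.61 and passed without dKO DMSO replicate 1, and was 0.08 without replicate 2.

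Col12a1 (ENSMUSG00000032332, chromosome 9, 79598987 to 79721141) encodes a FACIT collagen that coats type I fibrils. It had 12.1 and 11.1 CPM in dKO MI503, 1.91 and 2.27 in dKO DMSO, 0.687 and 0.986 in WT MI503, and 0.472 and 0.579 in WT DMSO. The dKO MI503 libraries were far above all others, and no groups overlapped. It rose by 1.99 on the log2 scale between dKO DMSO and WT DMSO (SE 0.21, adjusted p = 1.48e-06), and between dKO MI503 and WT MI503 by 3.80 (SE 0.164, adjusted p = 2.17e-10). With MI-503 it rose by 2.47 in dKO (SE 0.141, adjusted p = 5.91e-09) and 0.66 in WT (SE 0.249, adjusted p = 0.0306), and the rise in dKO was larger by 1.81 (SE 0.297, adjusted p = 0.000202). The call in WT ended without WT MI503 replicate 2 (0.38) or WT DMSO replicate 1 (0.52), and where only the groups compared were fitted (0.65).

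Of the other 8 FACIT genes 3 were tested. Col20a1 had group means of 1.69 CPM in dKO MI503, 2.17 in dKO DMSO, 2.65 in WT MI503 and 4.48 in WT DMSO. It fell by 1.04 between dKO DMSO and WT DMSO (adjusted p = 0.000137) and by 0.75 with MI-503 in WT (adjusted p = 0.00151). Its fall between dKO MI503 and WT MI503 (-0.66, adjusted p = 0.0102) ended as a call without dKO MI503 replicate 1 (-0.58) or WT MI503 replicate 1 (-0.39).

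Col9a3, a chain of type IX collagen known from cartilage, overlaps the gene Tcfl5. It averaged 0.296 CPM in dKO MI503, 0.232 in dKO DMSO, 0.982 in WT MI503 and 0.469 in WT DMSO, so that WT MI503 was highest. Its fall between dKO DMSO and WT DMSO (-1.0, adjusted p = 0.0333) did not pass in DESeq2, without TMM factors, in a fit of the groups compared, or without either dKO DMSO library or WT DMSO replicate 2, where it was -0.48. It rose with MI-503 in WT by 1.07 (adjusted p = 0.00757), which did not pass without WT DMSO replicate 1 (0.68), and between dKO MI503 and WT MI503 it fell by 1.73 (adjusted p = 0.000557). Col16a1, a FACIT collagen of fibrils in skin and cartilage, had 3 and 2 counts in dKO MI503, 3 and 3 in dKO DMSO, 17 and 17 in WT MI503, and 4 and 3 in WT DMSO. The WT MI503 libraries stood out, with a rise of 2.17 with MI-503 in WT (SE 0.544, adjusted p = 0.00276) and a fall of 2.72 between dKO MI503 and WT MI503 (SE 0.579, adjusted p = 0.00124). The gene passed the filter only through WT MI503, so its difference from the other groups was partly set by that choice. These p-values add nothing to the counts.

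Fibrillar collagen RNA was scarce, with 6 of 11 members tested and a summed level of 5.76 ± 0.999 CPM in dKO MI503, 3.62 ± 0.00504 in dKO DMSO, 4.53 ± 0.146 in WT MI503 and 2.54 ± 0.225 in WT DMSO (SD, n = 2 each). Col5a2, a chain of type V collagen that controls fibril width, had 38 and 28 counts in dKO MI503, 30 and 24 in dKO DMSO, and 0 in all 4 WT libraries. Against the floor of 3 counts over a group, it was at least 16.0-fold higher in dKO DMSO than in WT DMSO (adjusted p = 4.56e-05) and at least 21.9-fold higher in dKO MI503 than in WT MI503 (adjusted p = 2.66e-05). MI-503 in dKO gave a log2 change of 0.37 (95% interval -0.45 to 1.18, adjusted p = 0.429).

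Col5a1, its partner chain, had 18 and 13 counts in dKO MI503, 7 and 2 in dKO DMSO, 3 and 2 in WT MI503, and 0 and 5 in WT DMSO. It rose by 2.56 between dKO MI503 and WT MI503 (adjusted p = 0.0153) and by 1.84 with MI-503 in dKO (adjusted p = 0.0429). The gene passed the filter only through dKO MI503, so both changes were partly set by that choice. The first call ended in DESeq2 (adjusted p = 0.0605) and without dKO MI503 replicate 1 or either WT MI503 library, with log2 changes of 2.38 to 2.77. The second ended in DESeq2 (adjusted p = 0.176), with no filter (adjusted p = 0.0561) and with a replicate block in edgeR (adjusted p = 0.0552). It also ended without 5 of the libraries in turn, where the change was 1.16 to 1.99, and the change was 3.01 without dKO DMSO replicate 1.

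Col1a1, the main chain of type I collagen, had 20 and 14 counts in dKO MI503, 5 and 10 in dKO DMSO, 6 and 3 in WT MI503, and 2 and 0 in WT DMSO. The pooled counts of 15 and 2 put dKO DMSO 6.66-fold above WT DMSO, with a 95% counting interval of 1.55 to 60.0 (edgeR adjusted p = 0.0286). That call ended in DESeq2 (adjusted p = 0.0714) and without dKO DMSO replicate 2 (2.08) or WT DMSO replicate 2 (1.68). Without WT DMSO replicate 1 the remaining WT DMSO library had 0 counts, and the fitted change was 5.85 in place of 2.60 and depends on the prior count. Between dKO MI503 and WT MI503 it rose by 1.88 (adjusted p = 0.0179), which did not pass in DESeq2 (adjusted p = 0.101) or without dKO MI503 replicate 1 or either WT MI503 library. Only in dKO MI503 did both libraries reach about 10 counts, so this change was partly set by the filter. Col27a1, a fibrillar chain of cartilage, averaged 0.941 CPM in dKO MI503, 0.609 in dKO DMSO, 0.198 in WT MI503 and 0.0902 in WT DMSO. It rose by 2.72 between dKO DMSO and WT DMSO (SE 0.456, adjusted p = 0.000123) and by 2.21 between dKO MI503 and WT MI503 (SE 0.366, adjusted p = 0.000162), the last value being 2.79 without WT MI503 replicate 1. Only the dKO groups had at least 10 counts of Col27a1 in both libraries, so both changes were partly set by the filter.

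Col2a1, the main fibrillar chain of cartilage, rose with MI-503 in both genotypes. It had 3.29 and 2.50 CPM in dKO MI503, 1.27 and 1.42 in dKO DMSO, 3.29 and 3.39 in WT MI503, and 0.960 and 1.07 in WT DMSO. All MI503 libraries were above all DMSO libraries, with rises of 1.11 in dKO (SE 0.173, adjusted p = 8.92e-05) and 1.71 in WT (SE 0.182, adjusted p = 1.19e-06). Neither comparison of dKO with WT passed for it, with changes of 0.40 in DMSO (95% interval -0.03 to 0.84, adjusted p = 0.0943) and -0.20 in MI503 (adjusted p = 0.299). The difference of the MI-503 effects was -0.61 and did not pass (adjusted p = 0.0678). Col11a2, a chain of cartilage fibrils, averaged between 0.809 and 1.36 CPM in the groups. Its 1 call was a fall of 0.75 with MI-503 in WT (adjusted p = 0.0185), and it ended in DESeq2 (adjusted p = 0.0616), without TMM factors (-0.57) and without either WT MI503 library or WT DMSO replicate 2.

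Col26a1 (ENSMUSG00000004415, chromosome 5, 136741759 to 136883376), a short collagen first described in testis and ovary, was the member that fell with MI-503 in both genotypes. It had 1.39 and 1.25 CPM in dKO MI503, 7.02 and 8.56 in dKO DMSO, 1.42 and 1.49 in WT MI503, and 5.65 and 5.93 in WT DMSO. All MI503 libraries were at most at 1.49 CPM and all DMSO libraries at least at 5.65. The falls were 2.56 in dKO (SE 0.142, adjusted p = 4.28e-09) and 2.00 in WT (SE 0.144, adjusted p = 2.12e-08) on the log2 scale, with a difference of -0.56 (adjusted p = 0.0416). That difference did not pass in DESeq2 (-0.59) or without any of 6 libraries in turn, where it was -0.60 to -0.41. Between dKO DMSO and WT DMSO it rose by 0.43 (adjusted p = 0.00579), which did not pass without dKO DMSO replicate 2 (0.28). The change between dKO MI503 and WT MI503 was -0.13 (95% interval -0.51 to 0.24, adjusted p = 0.549).

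Col23a1, a transmembrane collagen, had 33 and 18 counts in dKO MI503, 11 and 9 in dKO DMSO, 23 and 19 in WT MI503, and 1 and 9 in WT DMSO. It rose with MI-503 by 1.42 in dKO (adjusted p = 0.0366) and 1.97 in WT (adjusted p = 0.0128). Only the MI503 groups had at least 10 counts in both libraries, so both rises were partly set by the filter. The dKO call ended in DESeq2 (adjusted p = 0.100) and without any of 5 libraries in turn (0.99 to 1.62), and the WT call ended without WT DMSO replicate 1 (1.13) and was 4.17 without WT DMSO replicate 2.

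**Figure D4:**
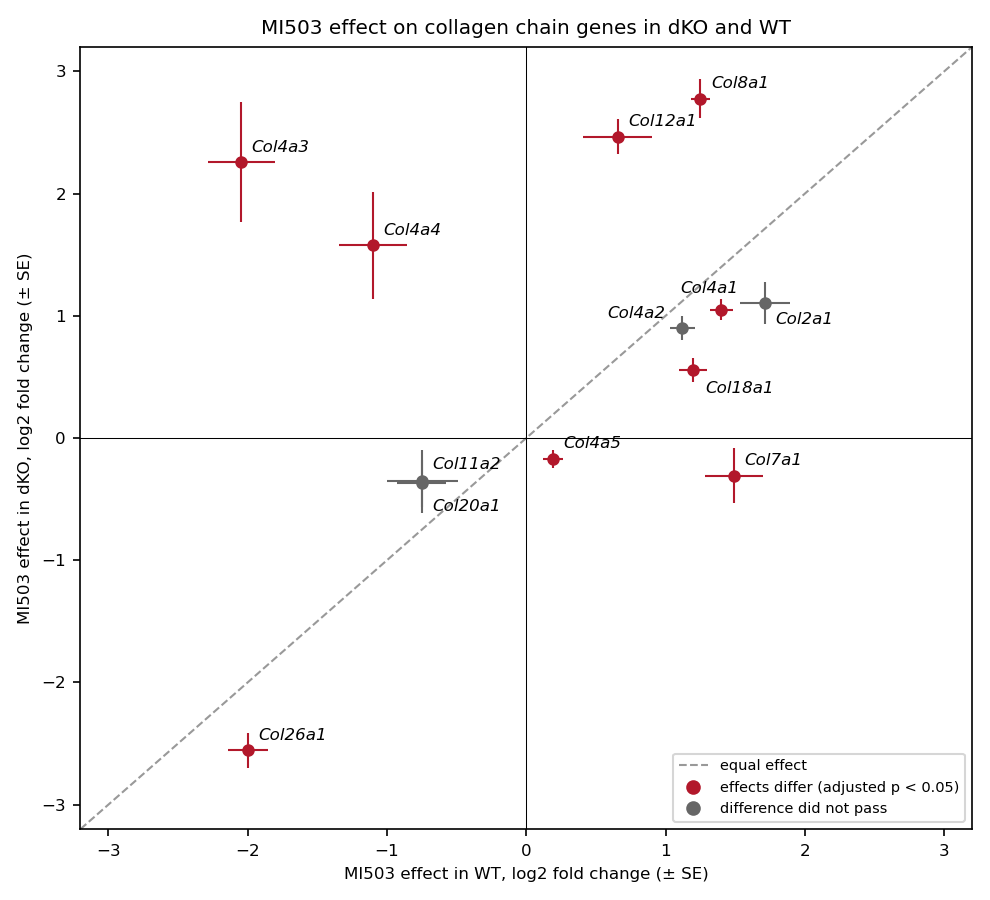
Effect of MI-503 on the 11 members with a mean of at least 1 CPM over all libraries and on Col4a3 and Col4a4, as log2 fold change in dKO (y axis) against that in WT (x axis), with SE bars. Red points passed the test of the difference and the dashed line marks equal effects. Col4a3 and Col4a4 lie in the upper left, Col7a1 at the lower right, and Col8a1 and Col12a1 above the line.

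The MI-503 effects in dKO and WT were compared directly as their difference. Of the 21 members 4 had a more positive effect in dKO, 5 a more negative one and 12 did not pass, against 24.8% and 22.0% of all tested genes (46.8% called). Col8a1, Col12a1, Col4a3 and Col4a4 were the 4 with the more positive effect. Col7a1, Col18a1, Col26a1, Col4a5 and Col4a1 were the 5 with the more negative one, and their differences are given above. Both directions were near the shares among all genes.

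The list of 21 genes for enzymes and chaperones that modify and fold collagen chains, of which 18 were tested, held 5 risen and 10 fallen genes between dKO DMSO and WT DMSO, and 4 risen and 10 fallen with MI-503 in WT. With MI-503 in dKO 10 rose and 4 fell, and between dKO MI503 and WT MI503 9 rose and 4 fell. Of all tested genes 65.4% were called between dKO DMSO and WT DMSO and 69.0% with MI-503 in WT. The shares were 55.6% with MI-503 in dKO and 55.1% between dKO MI503 and WT MI503. P4hb, a subunit of the prolyl hydroxylase and a protein disulfide isomerase, averaged 415 CPM in dKO MI503, 366 in dKO DMSO, 492 in WT MI503 and 958 in WT DMSO. P4ha2, a catalytic subunit of the same enzyme, averaged 19.2, 12.7, 24.6 and 66.7 CPM in that order. Both genes were highest in WT DMSO, the group in which the chaperone sum stood apart, and the part of that state in their values was not tested.

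P4ha2 fell by 2.39 between dKO DMSO and WT DMSO (adjusted p = 8.69e-13) and fell by 1.44 with MI-503 in WT, and rose by 0.60 with MI-503 in dKO (adjusted p = 1.95e-06). P4ha1, the other main catalytic subunit, fell by 0.75 between dKO DMSO and WT DMSO, and Plod2, a lysyl hydroxylase of collagen cross-linking, by 0.51. The 5 genes of the list that rose there, against 10 that fell, included P3h4 (1.86, adjusted p = 7.67e-10) and Plod3 (1.43). The comparison of dKO MI503 with WT MI503 sets no WT DMSO library against another, though WT DMSO libraries entered the fit. In it Plod2 rose by 0.90 (adjusted p = 7.80e-07) and P4hb fell by 0.25 (adjusted p = 0.000248), while P4ha1 changed by -0.15 (adjusted p = 0.0521). P3h2, a prolyl 3-hydroxylase that acts on type IV collagen, averaged 14 CPM in dKO MI503, 30.7 in dKO DMSO, 20.3 in WT MI503 and 79.9 in WT DMSO. It fell with MI-503 by 1.13 in dKO and 1.98 in WT. Serpinh1, the collagen chaperone HSP47, had group means of at most 0.0762 CPM and was not tested.

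Processing and cross-linking genes numbered 14, with 8 tested. Of these 3 rose and 3 fell between dKO DMSO and WT DMSO, 6 rose and 0 fell with MI-503 in WT, 7 rose and 0 fell with MI-503 in dKO, and 4 rose and 3 fell between dKO MI503 and WT MI503. Among all tested genes 65.4%, 69.0%, 55.6% and 55.1% were called in these comparisons, in that order. Pxdn, the peroxidase that forms sulfilimine bonds between type IV collagen molecules, had 63.3 and 63.3 CPM in dKO MI503, 37.8 and 36.8 in dKO DMSO, 4.65 and 4.76 in WT MI503, and 0.928 and 0.727 in WT DMSO. All dKO libraries were above all WT libraries, with a rise of 5.49 between dKO DMSO and WT DMSO (SE 0.099, adjusted p = 3.83e-14). Its direction was thus opposite to that of Col4a1 and Col4a2. Loxl4, a lysyl oxidase that cross-links collagen, averaged 14 CPM in dKO MI503, 3.70 in dKO DMSO, 84.8 in WT MI503 and 47.1 in WT DMSO, and fell by 3.67 between dKO DMSO and WT DMSO (adjusted p = 1.7e-13). Bmp1, the protease that removes the end piece of fibrillar procollagens, rose by 1.55 in the same comparison, and its enhancer Pcolce rose with MI-503 by 0.97 in dKO and 2.21 in WT. Lox and Adamts3 had no count in any library.

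Basement membrane partners of collagen numbered 14, with 11 tested. Between dKO DMSO and WT DMSO 4 rose and 5 fell, with MI-503 in WT 7 rose and 0 fell, with MI-503 in dKO 6 rose and 1 fell, and between dKO MI503 and WT MI503 5 rose and 3 fell. Among all tested genes 65.4%, 69.0%, 55.6% and 55.1% were called in these comparisons, in that order. Sparc, a matrix protein that binds collagen, had 3.61 and 4.04 CPM in dKO MI503, 0.591 and 0.757 in dKO DMSO, 199.7 and 198.6 in WT MI503, and 121.9 and 111.3 in WT DMSO. Hspg2, which encodes the basement membrane proteoglycan perlecan, had 7.78 and 7.84 CPM in dKO MI503, 1.71 and 2.40 in dKO DMSO, 123.4 and 102.0 in WT MI503, and 47.8 and 39.4 in WT DMSO. As with Col8a1, the dKO libraries of both genes lay far below those of WT and MI503 libraries above DMSO libraries of the same genotype.

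Sparc fell by 7.42 (SE 0.10, adjusted p = 5.20e-15) and Hspg2 by 4.40 (SE 0.15, adjusted p = 1.13e-11) between dKO DMSO and WT DMSO, and with MI-503 in dKO they rose by 2.49 and 1.92. The 4 laminin chains tested, which form the other network of basement membranes, changed in both directions in the comparison of dKO DMSO with WT DMSO. Lamb2 rose by 2.21 (SE 0.193, adjusted p = 2.20e-07) and Lamb1 rose by 0.88, while Lama5 fell by 0.77 and Lamc1 fell by 0.12. Nid2, which encodes a linker between laminin and type IV collagen, had no count in WT.

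Receptor genes numbered 10, with 6 tested, of which 3 rose and 2 fell between dKO DMSO and WT DMSO, 2 rose and 3 fell with MI-503 in WT, and 1 rose and 3 fell with MI-503 in dKO. Among all tested genes 65.4%, 69.0% and 55.6% were called in these comparisons, in that order. Itga1, the integrin chain that favours type IV collagen, averaged 4.15 CPM in dKO MI503, 4.55 in dKO DMSO, 0.0313 in WT MI503 and 0.115 in WT DMSO, a rise of 5.28 between dKO DMSO and WT DMSO (adjusted p = 3.97e-10). Itga1 passed the filter only through dKO groups, so this change was partly set by the filter. Itga2, which favours fibrillar collagen, averaged 37.1 CPM in dKO MI503, 83.6 in dKO DMSO, 49.4 in WT MI503 and 140.3 in WT DMSO, and fell with MI-503 by 1.17 in dKO and 1.5 in WT. Ddr1, a collagen-activated receptor kinase of epithelia, rose with MI-503 by 0.78 in dKO and 1.46 in WT. Between dKO MI503 and WT MI503 1 receptor gene rose and 2 fell, where 55.1% of all tested genes were called.

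Degradation genes, the collagenases and their inhibitors, numbered 14, with 9 tested. Of these 3 rose and 5 fell between dKO DMSO and WT DMSO, 3 rose and 3 fell with MI-503 in WT, 4 rose and 1 fell with MI-503 in dKO, and 3 rose and 3 fell between dKO MI503 and WT MI503. Among all tested genes 65.4%, 69.0%, 55.6% and 55.1% were called in these comparisons, in that order. Timp2, an inhibitor of metalloproteinases, averaged 136.3 CPM in dKO MI503, 84.9 in dKO DMSO, 309 in WT MI503 and 136.2 in WT DMSO, and rose with MI-503 by 0.68 in dKO and 1.18 in WT. Mmp14, a membrane-bound collagenase, averaged 445 CPM in dKO MI503, 438 in dKO DMSO, 347 in WT MI503 and 324 in WT DMSO, with a rise of 0.44 between dKO DMSO and WT DMSO (adjusted p = 3.38e-06). Mmp13, another collagenase, averaged at most 0.0881 CPM in dKO MI503, dKO DMSO and WT MI503 and 1.78 in WT DMSO.

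**Figure D5:**
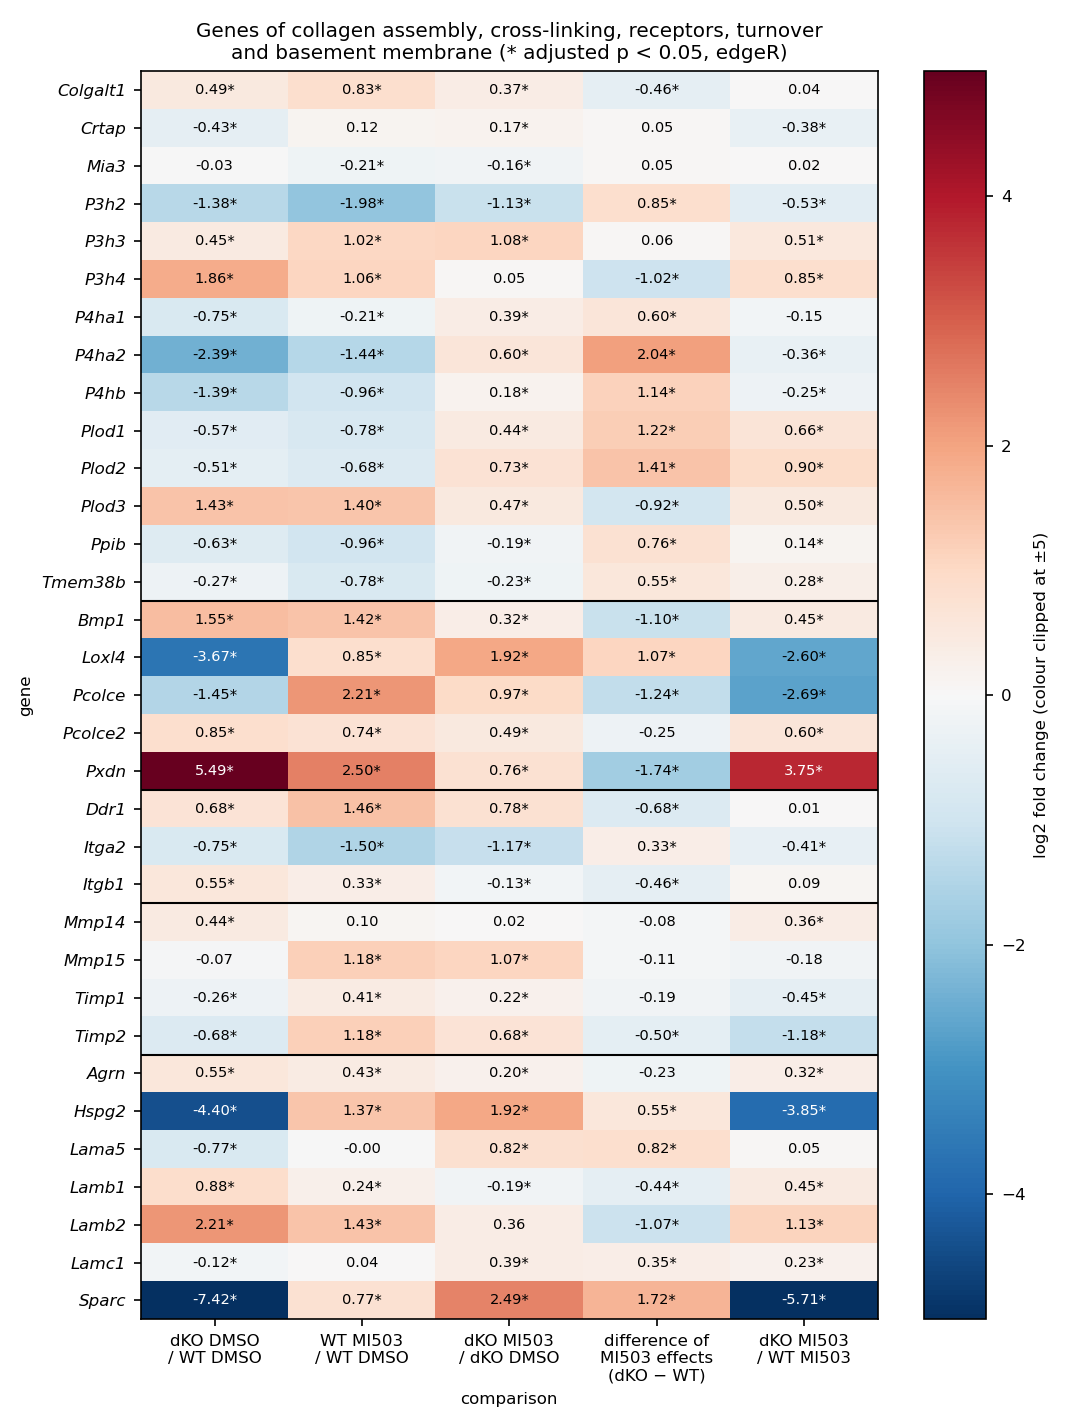
Log2 fold changes of the genes of collagen assembly, cross-linking, receptors, turnover and basement membrane with a mean of at least 5 CPM in some group (rows, lists parted by black lines) in 5 comparisons (columns), with an asterisk at an adjusted p below 0.05 (edgeR). Sparc, Hspg2 and Loxl4 are dark blue and Pxdn dark red in the columns that compare dKO with WT.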

How the data were processed

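PolyA RNA-seq of 8 libraries was analysed, 2 in each of 4 groups taken from the sample titles. The deposited values are raw counts per gene made by the authors. The submitters' processing notes name STAR and the builds GRCm38 and mm10, with no versions, and the sources used here do not give the counter, annotation or strand setting. A single row without a gene ID was left out. Counts were scaled by TMM and filtered with filterByExpr by group (minimum count 10, minimum total 15), which kept 16921 genes. They were fitted in edgeR 4.0.16 (R 4.3.3) with a quasi-likelihood model of the 4 groups, with 4 residual degrees of freedom. Tests and intervals add to these the prior degrees of freedom that edgeR estimates over all genes. Each SE is the absolute log2 fold change divided by the square root of the F statistic. P-values were adjusted by Benjamini-Hochberg over all genes tested, at a threshold of 0.05. Exact permutation of 2 against 2 libraries cannot go below p = 0.333. Fitted fold changes used a prior count of 0.125. Scripts were tested on simulated data.

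Collagen genes were found by symbol, and positions and sequences came from RefSeq tables of GRCm38.p6. The named genes were every tested member, the untested ones by totals, and in each partner list those with the smallest adjusted p together with Serpinh1, P4hb, P4ha1 and Plod2. The members and gene lists were chosen with earlier results of these data known. Mmp13, Lamb2, Lamc1, P3h2, Plod3, Lama5, Mmp14 and the smooth muscle and fibroblast markers were also named with their values seen. Library totals of 58113705 to 68571176 counts set the precision of counting, and floors and counting intervals of pooled counts cover counting error only. The other intervals come from the SE of the edgeR fit and include the spread between libraries that it estimates. Replicate libraries differed beyond sampling noise. Alternatives were a fit in DESeq2 1.42.0, RLE factors, scaling by library totals alone, leaving the filter out or making it stricter, fits of the groups compared, a replicate block and leaving out each library. The correlation of same-numbered libraries is given with the alternatives.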

Additional observations from a re-analysis of the deposited data

Results flagged for a closer look

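For 9 collagen genes the change with MI-503 differed between dKO and WT by a test of the difference itself (edgeR interaction term, adjusted over all genes tested). These were 9 of 21 tested members, where 46.8% of all tested genes passed the same test, so the count is near the background. The difference, as the log2 effect in dKO minus that in WT, was 4.30 for Col4a3 (adjusted p = 1.87e-05), 2.68 for Col4a4 (adjusted p = 0.000572), 1.81 for Col12a1 (adjusted p = 0.000202) and 1.53 for Col8a1 (adjusted p = 1.11e-05). It was -1.80 for Col7a1 (adjusted p = 0.000279), -0.64 for Col18a1 (adjusted p = 0.00202), -0.56 for Col26a1 (adjusted p = 0.0416), -0.36 for Col4a5 (adjusted p = 0.00957) and -0.35 for Col4a1 (adjusted p = 0.0260). The call for Col26a1 ended without any of 6 libraries in turn (-0.60 to -0.41), that for Col4a1 without any of 3 (-0.29 to -0.24) and that for Col4a5 without WT DMSO replicate 2 (-0.29). Each of these differences uses the WT DMSO libraries, in which the chaperones of the endoplasmic reticulum summed to 39409 and 42607 CPM, against 3607 to 4735 CPM in the other 6 libraries. The part of that state in the differences was not tested.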

How the results depend on the processing

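Of the values recomputed for single genes under each alternative, 1018 kept direction and side of the threshold, 61 lost the call, 13 gained one and 3 reversed. Under the stricter filter, which tested 11 members, 4 members fell between dKO DMSO and WT DMSO, 3 fell with MI-503 in WT, 6 rose with MI-503 in dKO, 2 had a more positive effect in dKO, and 2 rose and 6 fell between dKO MI503 and WT MI503, since fewer genes were tested. With MI-503 in dKO, 3 members fell with no filter, 2 in a fit of the groups compared, and 1 to 3 when a library was left out. The members with a more negative effect in dKO numbered 2 to 7 when a library was left out. Reversed values were Col4a5 between dKO DMSO and WT DMSO without TMM factors (0.066), Col7a1 in the same comparison (-0.10 to 0.58 when a library was left out) and Col7a1 with MI-503 in dKO (-0.61 to 0.077 when a library was left out). The cause was not tested. A fit left with 1 library in a group assumes that it varies like the other groups. Members at a few counts, such as Col1a1, Col5a1 and Col23a1, are limited by depth.

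The labels do not pair the libraries. Deviations of same-numbered libraries correlated at -0.514 to 0.309 over 6 pairs of groups. With a replicate block, 6 members rose and 8 fell between dKO DMSO and WT DMSO, 11 and 5 with MI-503 in WT, 9 and 1 with MI-503 in dKO, 4 and 5 for the difference of effects, and 6 and 10 between dKO MI503 and WT MI503. The block ended the call of Col5a1 with MI-503 in dKO (adjusted p = 0.0552). No fit of the groups compared exists for the difference of effects, which needs all 4.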
